A study of Mus musculus with 6 samples.

Results

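The 9 genes described here encode proteins of the membrane skeleton of the red cell and their widely expressed relatives: the spectrins Sptb, Sptan1 and Sptbn1, the ankyrin Ank1, protein 4.2 (Epb42), the adducins Add1, Add2 and Add3, and the tropomodulin Tmod1. They were chosen by symbol, as the non-control spots of the arrays that carry one of these names, and make up 9 of the 34741 gene names on the array. The array design uses older names for some of them. Of the 9 genes, 6 were found under their own name or, for Epb42, under Epb4.2. Sptb, Sptan1 and Sptbn1 are called Spnb1, Spna2 and Spnb2 in the design. They were found through the accession of their probes, except that the brighter Sptan1 probe was matched through the older name Spna2. The 9 genes have 14 probes in all.

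The membrane skeleton is a protein net under the cell membrane. Spectrin tetramers of an alpha and a beta chain form its strands. Ankyrin and protein 4.2 fasten those strands to the anion exchanger Slc4a1, and at the nodes of the net protein 4.1, adducin and tropomodulin hold short actin filaments, adducin capping one end and tropomodulin the other. Ank1, Epb42, Add2, Tmod1 and Sptb are the forms made strongly by maturing red cells, several of them also in brain or muscle, whereas Sptan1, Sptbn1, Add1 and Add3 are made by many cell types. The spleen of the adult mouse makes red cells in its red pulp and holds lymphocytes in its white pulp.

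Messenger RNA of spleen was measured on 6 one-colour arrays of B10.BALB-16.C2A mice, a strain that the series title calls congenic. The irradiated group had 3 arrays, of mice given 900 cGy of X-rays to the whole body whose spleens were taken 24 h later. The control group had 3 arrays of resting mice at 0 cGy. RNA of 3 mice was pooled for every array and came from homogenised whole splenocytes, so each value is a mean over all the cells of the pooled spleens. The comparison asks which of these transcripts differ 24 h after 900 cGy. Values are log2 signals minus the log2 of the array's 75th percentile, so that 0 is the 75th percentile of that array. The level of a probe is mainly compared between arrays. Levels of different probes are set together in choosing a gene's brightest probe, in differences between paralogs and in means and sums over gene lists.

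Per array, the scanner software marked 39036 to 41267 of the 55681 probes as well above background and none as saturated. Of 26642 genes tested, 8259 (31.0%) were lower and 7537 (28.3%) higher after 900 cGy at a limma adjusted p under 0.05, and the arrays of the 2 groups did not overlap for 17942 genes (67.3%). The median log2 change of all genes tested was -0.06, and it was -0.33 when the arrays were scaled to their spike-in control spots. All arrays shared 1 slide and 1 scan. Its first row held the 3 arrays at 0 cGy and replicate 1 at 900 cGy, and its second row replicates 2 and 3 at 900 cGy. Replicate 3 at 0 cGy stood apart from the other 0 cGy arrays in erythroid, dividing-cell and neutrophil genes, among others, as given below with its values. In bulk RNA, fewer cells of a type and less RNA per cell cannot be told apart.

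The stretches before the start sites of the genes with the deepest decreases and of 2 widely expressed relatives are shown because the results set these groups against each other. Each is the 250 bases upstream of the RefSeq start on GRCm38.p6, written from its own strand. Epb42 lies at chr2:121036878-121037127 (minus strand), Add2 at chr6:86028431-86028680 (plus strand), Tmod1 at chr4:46038972-46039221 (plus strand), Add1 at chr5:34573414-34573663 (plus strand) and Sptan1 at chr2:29965310-29965559 (plus strand). Capitals mark matches on either strand to the GATA motif, searched as GATA with A or T before it and A or G after the last A, or to the CACCC-type motif, searched as CCNCNCCC, which also takes in GC-rich boxes. Overlapping matches are merged into 1 run of capitals.
Epb42: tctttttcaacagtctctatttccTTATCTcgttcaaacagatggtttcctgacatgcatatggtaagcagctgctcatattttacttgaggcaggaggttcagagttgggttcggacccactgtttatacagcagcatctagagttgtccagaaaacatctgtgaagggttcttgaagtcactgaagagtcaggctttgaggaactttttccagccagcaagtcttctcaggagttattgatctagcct
Add2: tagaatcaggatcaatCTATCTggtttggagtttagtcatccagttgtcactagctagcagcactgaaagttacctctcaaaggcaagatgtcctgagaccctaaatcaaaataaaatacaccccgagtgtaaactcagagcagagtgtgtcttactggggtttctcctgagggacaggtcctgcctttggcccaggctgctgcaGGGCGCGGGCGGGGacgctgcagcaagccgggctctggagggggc
Tmod1: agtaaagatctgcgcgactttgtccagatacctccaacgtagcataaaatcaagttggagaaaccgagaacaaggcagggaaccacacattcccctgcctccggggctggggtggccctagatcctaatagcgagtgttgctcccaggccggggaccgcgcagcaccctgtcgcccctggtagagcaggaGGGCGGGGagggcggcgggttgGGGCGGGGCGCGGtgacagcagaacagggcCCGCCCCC
Add1: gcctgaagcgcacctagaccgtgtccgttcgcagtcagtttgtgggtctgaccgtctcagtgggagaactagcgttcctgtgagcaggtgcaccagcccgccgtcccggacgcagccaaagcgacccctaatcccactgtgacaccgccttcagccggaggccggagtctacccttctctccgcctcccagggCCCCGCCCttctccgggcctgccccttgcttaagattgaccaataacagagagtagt
Sptan1: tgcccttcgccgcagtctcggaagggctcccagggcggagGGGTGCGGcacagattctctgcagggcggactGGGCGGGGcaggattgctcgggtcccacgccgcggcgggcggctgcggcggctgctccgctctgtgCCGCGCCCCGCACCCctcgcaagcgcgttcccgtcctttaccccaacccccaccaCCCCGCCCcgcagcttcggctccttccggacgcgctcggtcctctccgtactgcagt
GATA1 and KLF1 are the erythroid factors known to bind such motifs. Epb42 has 1 GATA match, 226 bases before the start, and no CACCC-type match. Add2 has 1 GATA match, 234 bases before the start, and 2 CACCC-type matches. Tmod1 has 4 CACCC-type matches, Sptan1 has 5 and Add1 has 1, and these 3 genes have no GATA match. Sptb, not shown, has 3 CACCC-type matches and no GATA match. Both promoters listed for Sptbn1 and 1 of the 3 listed for Add3 also have a GATA match. Of 32851 mouse promoters of this length, 26.5% hold a GATA match and 45.9% a CACCC-type match, and among the members neither motif divides the genes that fell deeply from those that did not. A match describes the letters alone, and erythroid control often lies far from the start site. Promoters were matched for 8 of the 9 genes, all but Ank1.

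Ank1, Epb42, Add2 and Tmod1 were all far lower after 900 cGy, and for each the highest irradiated array lay well under the lowest array at 0 cGy. In the values used here the decreases ran from 33.3-fold for Tmod1 to a bound of 333-fold for Add2. With normexp background correction the log2 changes were -3.25 for Tmod1 and -6.15 for Add2, the latter less than its bound of 8.38 log2 units. Of the 9 genes, 6 were lower, 1 was higher and 2 did not pass the threshold, to be read against 31.0% lower and 28.3% higher among all genes tested. The arrays of the 2 groups did not overlap for 8 of the 9, against 67.3% of all genes. Ranked by log2 change among the 26642 genes, from the lowest, Epb42 was at rank 13 and Ank1 at 21. These ranks describe the values used here, and the sizes behind them depend on how dim spots are treated. Add2 and Tmod1 are given no rank, because neither was well above background on all 3 arrays at 900 cGy.

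**Figure D1:**
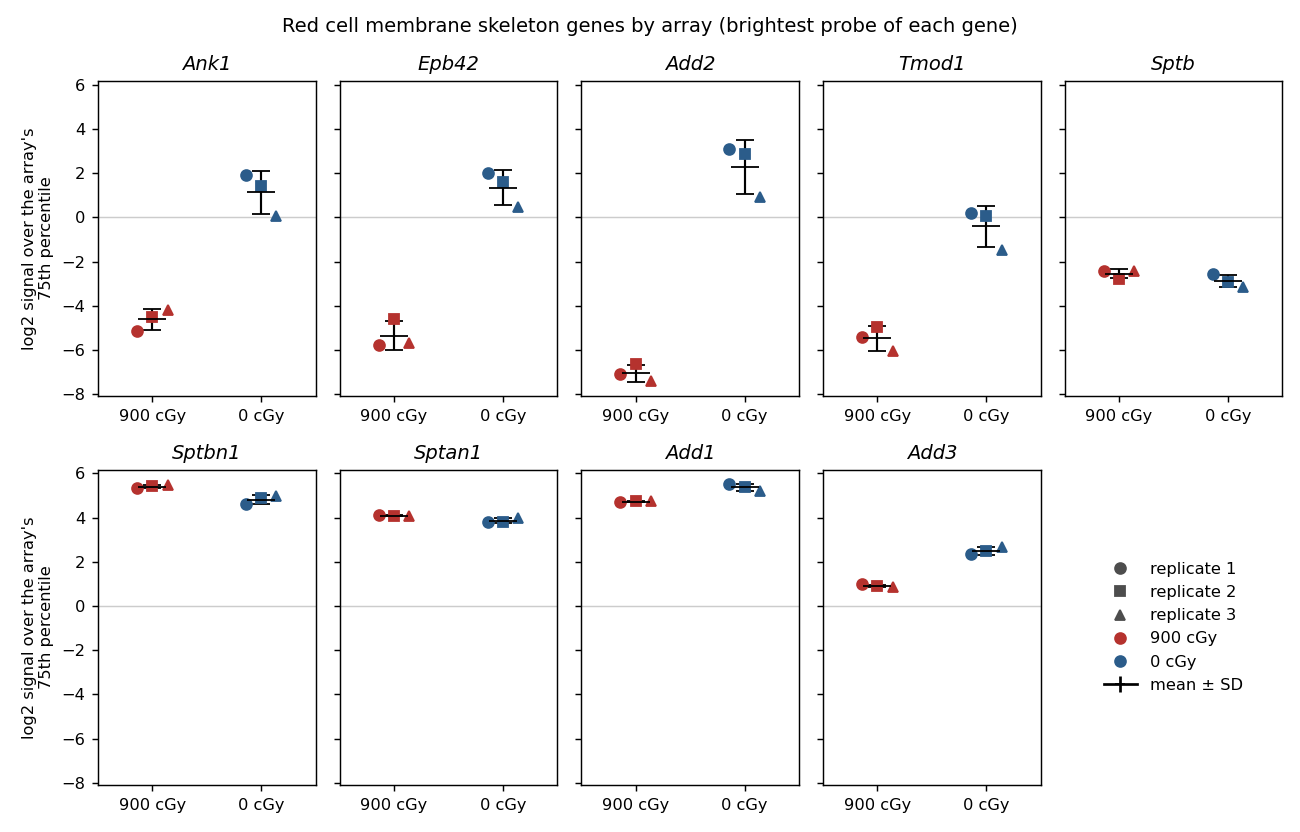
Log2 signal over the array's 75th percentile (y axis) for the brightest probe of each of the 9 genes, with 1 point per array (pool of 3 mice), 900 cGy on the left and 0 cGy on the right of each panel, and the mean ± SD as black bars. Ank1, Epb42, Add2 and Tmod1 lie between -7.42 and -4.18 at 900 cGy and between -1.50 and 3.10 at 0 cGy, while the other 5 genes move by under 1.6 log2 units.

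Add2 encodes beta-adducin, which pairs with alpha-adducin in the red cell and in brain to cap and bundle actin. Its levels were -7.09, -6.64 and -7.42 at 900 cGy, where no array had the probe well above background, against 3.10, 2.86 and 0.90 at 0 cGy. All 3 irradiated arrays were thus at the floor of the measurement, and a gap of 7.54 log2 units separated the groups. In the values used here the decrease of Add2 had a bound of 333-fold, which did not hold with normexp (means -7.05 ± 0.39 at 900 cGy and 2.29 ± 1.21 at 0 cGy, SD, n = 3 pools each). The bound sets the mean at 0 cGy against the higher, on each irradiated array, of the lowest signal that was well above background and the probe's own signal. The fitted log2 change, which uses the signals below background, was -9.34 ± 0.59 (SE, limma adjusted p = 7.87e-05). With normexp background correction it was -6.15, which is less than the bound of 8.38 log2 units, so the size of the decrease depends on how the dim spots are treated. The probe lies at chr6:86069490-86069549 of mm9 and starts at base 3059 of the transcript.

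Epb42 encodes protein 4.2, a relative of the transglutaminases without enzyme activity that holds ankyrin to the anion exchanger. Its brighter probe, at chr2:120844440-120844499 of mm9, had levels of -5.77, -4.59 and -5.68 at 900 cGy, against 1.99, 1.59 and 0.45 at 0 cGy. The groups were 5.04 log2 units apart at their nearest arrays. The gene was 103-fold lower, with means of -5.35 ± 0.66 at 900 cGy and 1.34 ± 0.80 at 0 cGy (SD, n = 3 pools each; log2 change -6.69 ± 0.48 SE, limma adjusted p = 0.000106). With normexp background correction the log2 change was -4.96. A second probe of Epb42 lies at chr2:120849386-120849445. Its signal was well above background on none of the irradiated arrays, with -6.22, -6.60 and -8.25 at 900 cGy, against -0.33, -0.65 and -1.95 at 0 cGy. By that probe the decrease of Epb42 had a bound of 34.7-fold in the values used here. The fitted log2 change of that probe, -6.05, had the same direction as that of the first probe.

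Ank1 encodes the erythrocyte ankyrin, which ties beta-spectrin to the anion exchanger. Its levels were -5.14, -4.53 and -4.18 at 900 cGy, against 1.91, 1.44 and 0.04 at 0 cGy. All 6 arrays had this probe well above background, and no irradiated array came within 4.22 log2 units of an array at 0 cGy. Ank1 was 53.6-fold lower, with means of -4.62 ± 0.49 at 900 cGy and 1.13 ± 0.97 at 0 cGy (SD, n = 3 pools each; log2 change -5.75 ± 0.50 SE, limma adjusted p = 0.00019). With normexp background correction the log2 change was -4.57. Its probe lies at chr8:24259068-24259127 of mm9.

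Tmod1 encodes the tropomodulin of red cells, heart and other striated muscle, which caps the slow-growing end of actin filaments. Its levels were -5.40, -4.95 and -6.06 at 900 cGy, where 2 of the 3 arrays were well above background, against 0.20, 0.06 and -1.50 at 0 cGy. The groups stood 3.45 log2 units apart, a narrower gap than those of Ank1, Epb42 and Add2. Tmod1 was 33.3-fold lower, with means of -5.47 ± 0.56 at 900 cGy and -0.41 ± 0.95 at 0 cGy (SD, n = 3 pools each; log2 change -5.06 ± 0.50 SE, limma adjusted p = 0.000313). With normexp background correction the log2 change was -3.25. Its probe lies at chr4:46127384-46127441 of mm9. A probe of Tstd2, which lies within 1000 bases of it on the opposite strand, had a log2 change of -0.06.

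By its single probe, Sptb, which encodes the beta-spectrin of the red cell and is also made in muscle and brain, did not follow these 4 genes. That probe, at chr12:77682089-77682148 of mm9, starts at base 9720 of the transcript it was designed against. Its levels were -2.43, -2.77 and -2.42 at 900 cGy, against -2.57, -2.92 and -3.13 at 0 cGy. The groups overlapped, and the difference did not pass the threshold (means -2.54 ± 0.20 at 900 cGy and -2.87 ± 0.28 at 0 cGy, SD, n = 3 pools each; log2 change 0.33 ± 0.17 SE, limma adjusted p = 0.142). Without replicate 1 at 0 cGy the log2 change was 0.49 and passed (limma adjusted p = 0.0377), and with spike-in scaling it was 0.06. It was well above background on each of the 6 arrays. Because there is no other probe of Sptb on the array, its value could not be set against a second measurement. Which transcripts of Sptb the probe reads was not checked.

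Among the widely expressed genes the changes were smaller and went both ways. Sptbn1, the beta-spectrin of most cells that are not red cells, had levels of 5.32, 5.42 and 5.47 at 900 cGy, against 4.59, 4.88 and 4.98 at 0 cGy by its brightest probe, at chr11:29999401-29999460 of mm9. Every irradiated array was above every array at 0 cGy, by at least 0.34 log2 units. Sptbn1 was 1.50-fold higher (means 5.40 ± 0.07 at 900 cGy and 4.82 ± 0.20 at 0 cGy, SD, n = 3 pools each; log2 change 0.59 ± 0.12 SE, limma adjusted p = 0.00617). The call did not hold with spike-in scaling (0.32, limma adjusted p = 0.151), with slide row as a block (0.51, limma adjusted p = 0.0707) or within the first slide row (0.51, limma adjusted p = 0.139).

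Sptan1, the alpha-spectrin of those cells, had levels of 4.10, 4.07 and 4.08 at 900 cGy, against 3.81, 3.79 and 3.98 at 0 cGy by its brighter probe, at chr2:29886906-29886965 of mm9. The groups did not overlap, but they were only 0.09 log2 units apart, and the change did not pass the threshold (log2 change 0.23 ± 0.09 SE, limma adjusted p = 0.0596). It passed with the mean of both probes (0.57, limma adjusted p = 0.00337), with array weights (0.27, limma adjusted p = 0.00483) and without replicate 3 at 0 cGy (0.29, limma adjusted p = 0.0129). With spike-in scaling the change was -0.04 and did not pass, so no direction is given for Sptan1.

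The widely expressed adducins were both lower. Add1, alpha-adducin, which pairs with the other adducins in nearly every cell type, had levels of 4.69, 4.74 and 4.73 at 900 cGy, against 5.51, 5.37 and 5.22 at 0 cGy. Its groups did not overlap. Add1 was 1.57-fold lower (means 4.72 ± 0.03 at 900 cGy and 5.37 ± 0.15 at 0 cGy, SD, n = 3 pools each; log2 change -0.65 ± 0.10 SE, limma adjusted p = 0.00167), and within the first slide row the log2 change was -0.68 without passing (limma adjusted p = 0.0536). The probe lies at chr5:34974884-34974943 of mm9.

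Add3, gamma-adducin, which takes the place of beta-adducin in most other cells, had levels of 0.98, 0.90 and 0.87 at 900 cGy, against 2.34, 2.48 and 2.68 at 0 cGy. The 3 irradiated arrays lay close together and 1.37 log2 units or more under the controls. Add3 was 3.01-fold lower (means 0.91 ± 0.06 at 900 cGy and 2.50 ± 0.17 at 0 cGy, SD, n = 3 pools each; log2 change -1.59 ± 0.11 SE, limma adjusted p = 9.52e-05), and among all genes tested its decrease was at rank 1119. Its probe lies at chr19:53321309-53321368 of mm9.

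Within the first slide row, which holds replicate 1 at 900 cGy and all 3 arrays at 0 cGy, the log2 changes of Add2, Epb42, Ank1, Tmod1 and Add3 were -9.38, -7.11, -6.27, -4.99 and -1.52, and each passed with a limma adjusted p of 0.012 or less. In that fit the lone irradiated array is assumed to vary like the controls. The second row holds irradiated arrays alone, so a fit with slide row as a block takes its changes from the first row and adds no separate check of them. In the plot of probes, Add2, Epb42, Ank1 and Tmod1 stand far from the other genes.

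**Figure D2:**
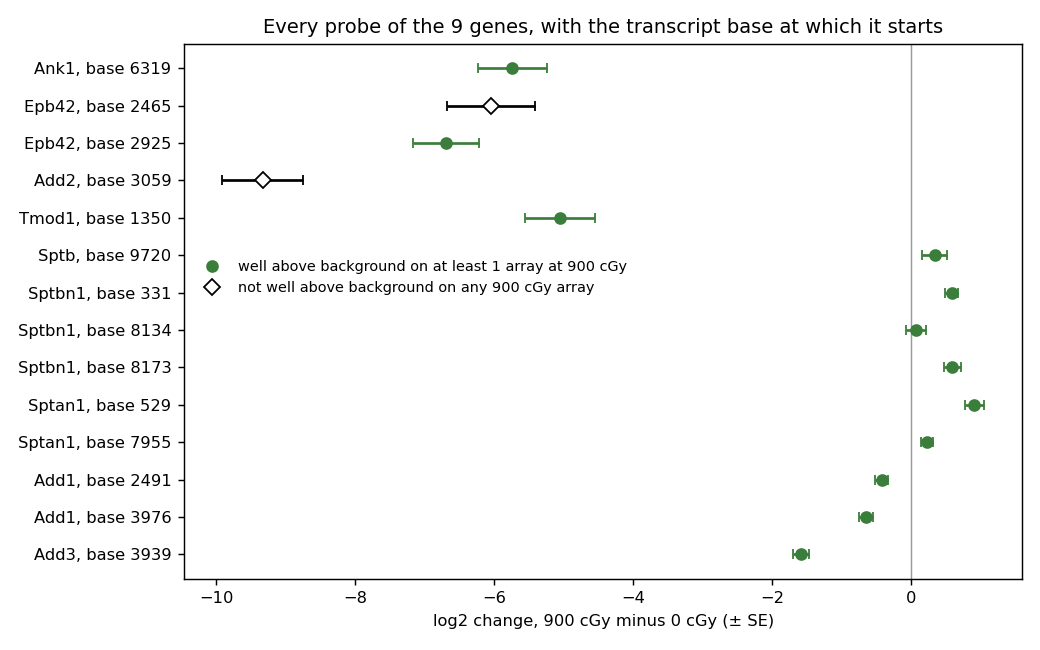
Log2 change, 900 cGy minus 0 cGy, with its standard error (x axis), for each of the 14 probes of the 9 genes, named by gene and by the base of the transcript at which the probe starts (3 arrays per group). Both Epb42 probes, at -6.69 and -6.05, lie with those of Ank1, Add2 and Tmod1, while the probes of the spectrins and of Add1 lie between -0.65 and 0.91.

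Where a gene had several probes, the sizes of their changes could differ. For Sptbn1 the probe starting at base 331, which spans a splice gap, gave 0.58 (limma adjusted p over probes = 0.002), close to the 0.59 of the probe at base 8173. The third Sptbn1 probe, at base 8134 of another transcript and at chr11:30007698-30007757, gave 0.07 and did not pass (limma adjusted p over probes = 0.699). For Sptan1 the dimmer probe, at chr2:29835660-29835719, had levels of -0.41, -0.30 and -0.17 at 900 cGy, against -1.47, -1.09 and -1.04 at 0 cGy. That probe was higher by a log2 change of 0.91 (limma adjusted p over probes = 0.002), whereas the brighter one gave 0.23. Both Add1 probes were lower, at -0.65 and -0.43.

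Differences between paralogs were then computed within each array, so that the scaling of the array cancels. Beta-adducin fell by more than alpha-adducin, with a difference in log2 change of -8.69 ± 0.66 (SE, Add2 minus Add1), and by more than gamma-adducin, with -7.75 ± 0.82 (Add2 minus Add3). These differences rest on signals of Add2 below background after irradiation, and with normexp they were -5.50 and -4.60. Gamma-adducin in turn fell by more than alpha-adducin, by a difference of -0.94 ± 0.19. For each of these 3 pairs the irradiated and control arrays were fully separated (exact permutation test over arrays, two-sided, p = 0.1, the smallest that 3 arrays against 3 can give). Over the 11 pairs compared, the adjusted p was 0.11 for every pair but that of the beta-spectrins.

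The same separation was seen for the other pairs of a red cell form and its relative. Ank1 differed from Ank2 by -6.84 ± 0.71 and from Ank3 by -6.75 ± 0.61 in log2 change. Ank2 and Ank3, the ankyrins best known from heart and neurons, were both higher after 900 cGy, at 1.09 and 1.002 by their brightest probes. Another tested probe matched to Ank2 gave -0.41 without passing (limma adjusted p over probes = 0.204). Over the alternatives the log2 change of Ank2 was 0.34 or more. Epb42 differed from Tgm2, an active transglutaminase that was higher at 1.74, by -8.43 ± 0.60. Tmod1 differed from Tmod3, the widely expressed tropomodulin, by -4.48 ± 0.69. With normexp the difference of Epb42 and Tgm2 was -6.68 and that of Tmod1 and Tmod3 was -2.68. Tmod3 was itself lower at -0.58, a call that did not hold within the first slide row (-0.41, limma adjusted p = 0.16). The exact permutation p was 0.1 for each of these 4 pairs.

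The beta-spectrins were the exception. Sptb, by its single probe, and Sptbn1 had log2 changes of 0.33 and 0.59. Their difference was -0.25 ± 0.31 (exact permutation test, p = 0.5, and 0.5 when adjusted over the 11 pairs). Without replicate 1 at 0 cGy that difference was 0.01.

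**Figure D3:**
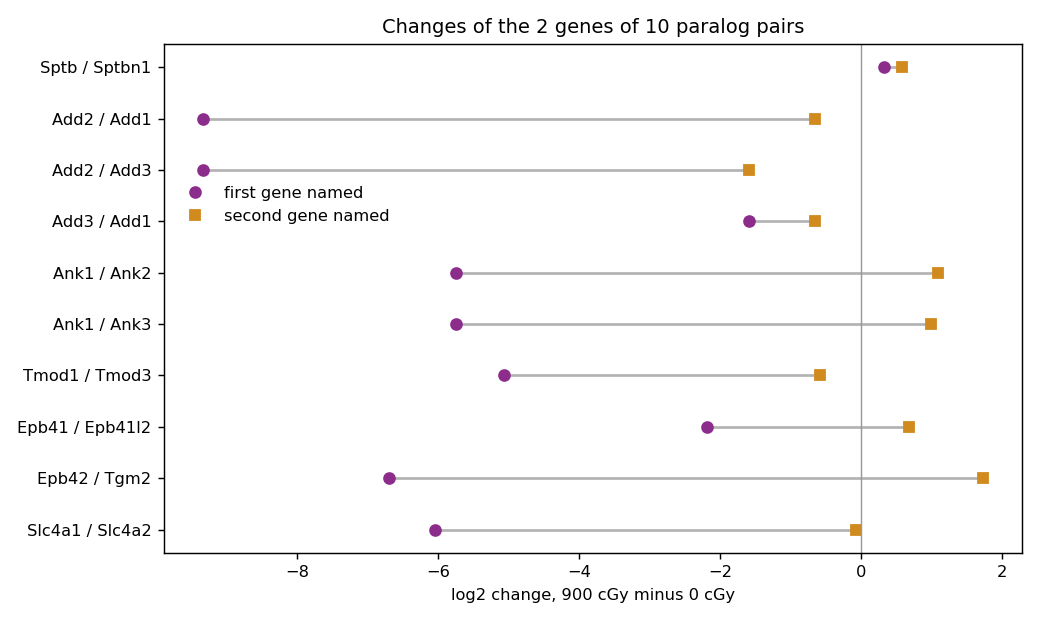
Log2 change, 900 cGy minus 0 cGy (x axis), of both genes of 10 of the 11 pairs, the first gene named as a circle and the second as a square, with a line joining them. The genes of a pair differ by between -2.86 and -8.69, except Add3 and Add1 at -0.94 and Sptb and Sptbn1 at -0.25. The points of Add2 rest on signals below background, and with normexp the difference of Add2 and Add1 is -5.50.

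The 4 genes with deep decreases also varied most among the controls. Set against the mean of replicates 1 and 2, replicate 3 at 0 cGy had a log2 difference of -2.08 for Add2, -1.63 for Ank1 and also for Tmod1, and -1.34 for Epb42. For the other 5 genes that difference lay between -0.38 for Sptb and 0.27 for Add3. Over all genes tested its median was -0.00. The same array was lower in the mean of the erythroid precursor markers, by -1.21, in dividing-cell markers, by -1.47, and in neutrophil markers, by -1.41. Megakaryocyte and platelet markers differed by -0.64, B cell markers by 0.37 and T cell markers by 0.38. Without that array the log2 change of Add2 was -10.03 and that of Ank1 was -6.29, both still called lower.

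**Figure D4:**
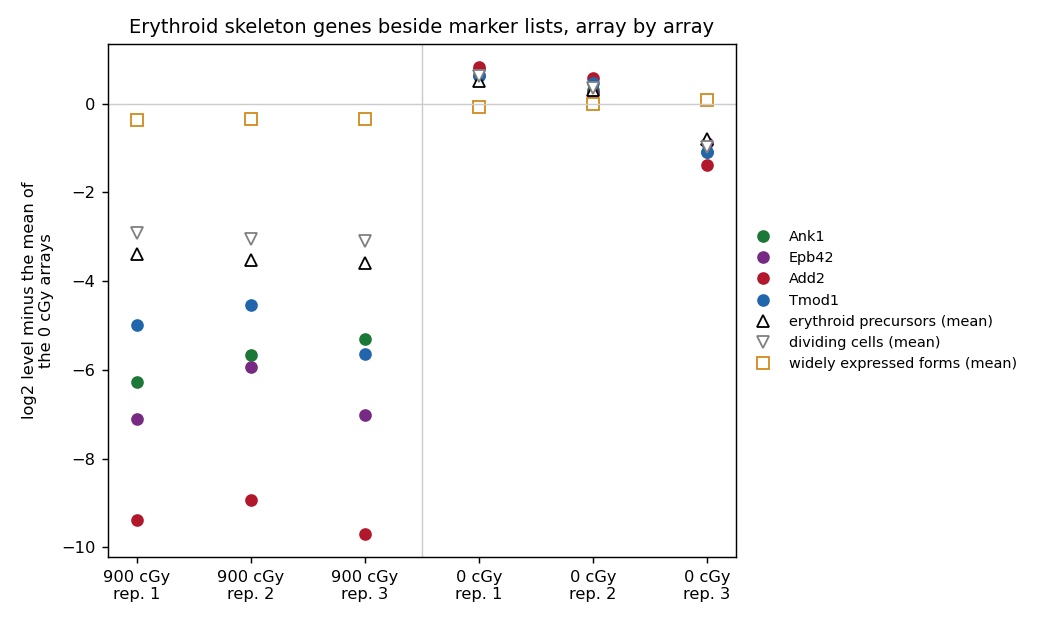
Log2 level minus the mean of the 3 arrays at 0 cGy (y axis) on each array (x axis) for Ank1, Epb42, Add2 and Tmod1 (filled points) and, as open symbols, the mean over erythroid precursor markers, over dividing-cell markers and over Sptan1, Sptbn1, Add1 and Add3. Replicate 3 at 0 cGy is the lowest control array for the 4 genes and for both marker means, and all 3 irradiated arrays lie below it for each of these.

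Several of the membrane proteins that the skeleton holds in place were lower as well. Of 20 partner genes tested, 12 were lower, 1 was higher and 7 did not pass, against 31.0% lower and 28.3% higher among all genes tested. The median log2 change of the partners was -1.32, beside -0.06 for all genes. Slc4a1, the anion exchanger to which ankyrin and protein 4.2 bind, had levels of 0.38, 0.38 and -0.08 at 900 cGy, against 6.93, 6.55 and 5.31 at 0 cGy, a log2 change of -6.04 ± 0.41 (SE, limma adjusted p = 9.37e-05). Its difference from the widely expressed exchanger Slc4a2, which had a log2 change of -0.06, was -5.98 ± 0.47.

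Kel, Icam4, Xk and the Rh genes Rhd and Rhag were lower. Rhd was well above background on none of the irradiated arrays, and its decrease had a bound of 362-fold in the values used here. Rhag, its partner in the Rh complex, had a log2 change of -7.79 with 1 of 3 irradiated arrays well above background. Kel, a blood group protease, had -8.02 and Xk, the membrane protein to which it is bound, -3.00. The adhesion protein Icam4 had -5.16. All of these passed the threshold, and their sizes depend on how dim spots are treated. With normexp the log2 changes were -6.54 for Rhd, which is under its bound of 8.50 log2 units, -4.94 for Rhag, -6.97 for Kel, -4.44 for Icam4 and -2.20 for Xk.

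Other partners moved less. Epb41, protein 4.1, which joins spectrin to actin, was lower by a log2 change of -2.18 (limma adjusted p = 0.000391). Its difference from the relative Epb41l2, which was higher at 0.68, was -2.86 ± 0.36 (exact permutation p = 0.1). The water channel Aqp1 was lower at -1.86, which did not pass within the first slide row (-1.82, limma adjusted p = 0.0788). Gypc, a glycophorin bound by protein 4.1, and Mpp1, its scaffold, were lower by under 1 log2 unit. Tpm1, a tropomyosin, was the single partner that was higher, at 0.29 by its brightest probe. The other Tpm1 probes gave -0.41, -0.33, -0.27, -0.17 and 0.07, none of them passing. With spike-in scaling, and with median scaling, none of the partners passed as higher. Stom, Cd47, Slc2a1, Tpm3, Actb, Actg1 and Dmtn did not pass.

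Dmtn, dematin, an actin-bundling protein of the red cell, has probes that differ, a feature singled out after the values were seen. The probe that stands for the gene had a log2 change of 0.20, which did not pass. The other, at chr14:71003548-71003607 of mm9, had levels of -2.17, -2.00 and -2.29 at 900 cGy, against 2.27, 1.85 and 0.19 at 0 cGy, a log2 change of -3.59 (limma adjusted p over probes = 0.00128). The 2 probes were designed against different transcripts of Dmtn.

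A log2 decrease of 5 or more, a limit set after the values were seen, was reached by 30 of the 26642 genes. Ank1, Epb42, Add2 and Tmod1 were 4 of them, 7 were among the 20 membrane partners, and 3 were among the 12 erythroid precursor markers tested. The signals of Add2 at 900 cGy were below background, and Tmod1, at -5.06, lay close to the limit. With normexp background correction Ank1 at -4.57, Epb42 at -4.96 and Tmod1 at -3.25 did not reach the limit, while Add2 at -6.15 did. The count of members is thus a description that depends on how dim spots are treated.

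Most relatives of the skeleton proteins that are known mainly from cells other than red cells were higher. Of 17 listed, 16 were tested, of which 11 were higher, 3 lower and 2 did not pass, with a median log2 change of 0.84. Among all genes tested, 28.3% were higher and 31.0% lower. The largest were Epb41l3, a protein 4.1 relative, at 2.09, and Slc4a3, an anion exchanger, at 1.87. Epb41l1 had 1.54 and the neuronal tropomodulin Tmod2 1.07. The genes that were lower were Sptbn5 at -1.39, Tmod4, a tropomodulin of skeletal muscle, at -0.77, and Tmod3 at -0.58. The decrease of Sptbn5 rests on its brightest probe: the 3 other probes tested gave 0.56, 0.23 and 0.46 without passing, and the mean of its probes gave -0.04 (limma adjusted p = 0.873). The call of Tmod4 was lost in 8 of 19 alternatives and that of Tmod3 in 2 of 19. Among relatives that were higher, the call of Tmod2 was lost in 2 of 19 and that of Epb41l2 in 2 of 18. With normexp Tmod2 had 0.50 and Sptbn5 -0.57. Within the first slide row 7 of the relatives were higher and 0 lower (limma adjusted p under 0.05).

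Markers of several cell types moved with these groups of genes. Their counts are to be read against 31.0% lower and 28.3% higher among all genes tested. Of 12 erythroid precursor markers tested, none of them among the skeleton or partner genes, 10 were lower and 2 did not pass, with a median log2 change of -2.81. Their summed linear level ranged over 331 to 398 on the irradiated arrays and 686 to 1085 at 0 cGy, in multiples of the 75th percentile. At 900 cGy the larger part of that sum came from the globin gene Hba-a1, which had a log2 change of -0.73. Klf1, a transcription factor of red cell precursors, had log2 levels of -5.66, -6.51 and -6.21 at 900 cGy, where 1 of 3 arrays was well above background, against 2.78, 2.19 and 0.55 at 0 cGy. All 5 dividing-cell markers tested were lower, with a median of -2.90. Each marker tested was well above background on at least 1 array of each group. The part of these shifts in the values of the 9 genes was not tested.

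Other lists moved in both directions, to be read against the same 31.0% lower and 28.3% higher among all genes tested. All 8 B cell markers and 7 of 8 T cell markers were lower, with medians of -2.82 and -1.72, and 3 of 7 neutrophil markers were lower. The other T cell marker, Cd4, was higher, at 0.31 by its brightest probe (limma adjusted p = 0.0357). Its second probe gave -0.34 without passing (limma adjusted p over probes = 0.0549). All 9 macrophage markers were higher, with a summed level of 809 to 832 at 900 cGy and 235 to 253 at 0 cGy, as were all 7 stromal markers, all 5 adipocyte markers and 5 of 7 endothelial markers. Of 7 megakaryocyte and platelet markers 1 was higher and 6 did not pass. All 11 markers of exocrine pancreas, a tissue next to the spleen, were higher, with a summed level of 1200 to 1612 at 900 cGy and 2.25 to 119 at 0 cGy. The part of each in the changes of the widely expressed skeleton genes and their relatives was not tested.

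**Figure D5:**
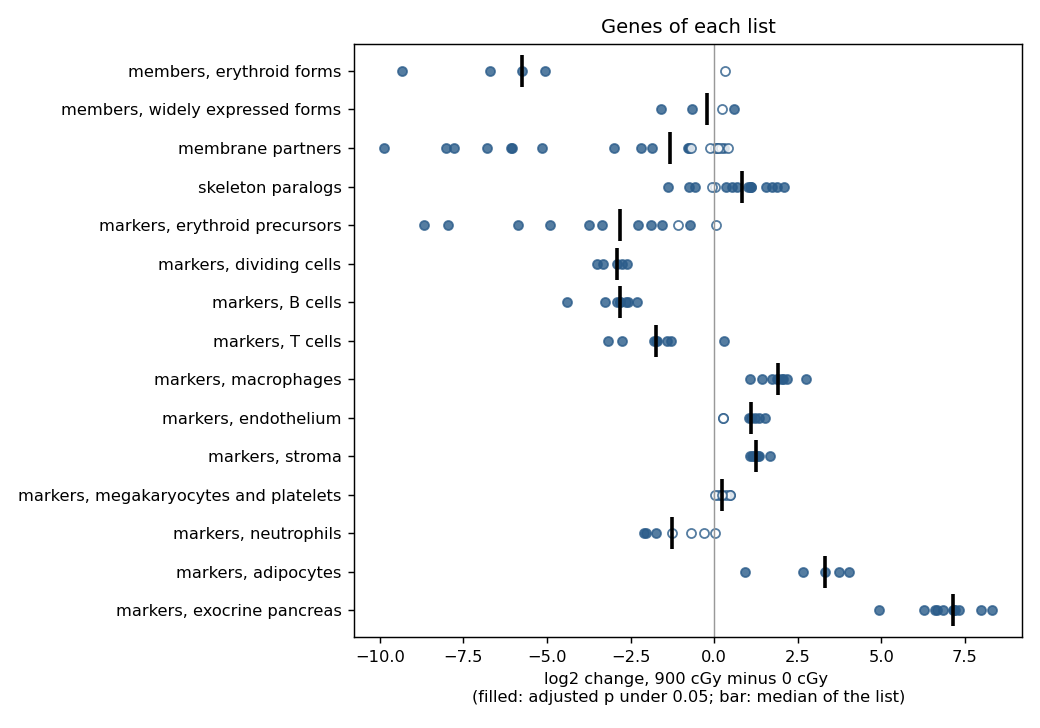
Log2 change, 900 cGy minus 0 cGy (x axis), of each gene of the member, partner, relative and marker lists, filled where the limma adjusted p was under 0.05, with a black bar at the list's median. The medians are -5.75 for the 5 erythroid forms, -0.21 for the 4 widely expressed forms, -1.32 for the membrane partners and 0.84 for the skeleton relatives.

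For the members measured on all 6 arrays, the genes of most similar profile were sought among 16797 genes by the root mean square difference between log2 profiles centred on their means, a measure over 6 arrays that is given as a description. Among the 3 nearest to Ank1 were Car1, an erythroid carbonic anhydrase, at 0.33 and Trim10 at 0.35. Those nearest to Epb42 were Apol8 at 0.39, Ermap, an erythroid membrane protein, at 0.41 and Trim10 at 0.43. The likeness of Add3 was closest to Arid3b at 0.040, Thy1, a T cell surface protein, at 0.041 and Glcci1 at 0.046. Sptb lay nearest to Gnaz at 0.029, Cd33 at 0.038 and Slc6a3 at 0.050.

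Sptbn1 lay nearest to Btbd19, Gdap10 and Rabgap1, Sptan1 to Cacfd1, Gphn and Rab40c, and Add1 to Ubr7, Luc7l and Rnf126, all at distances of 0.036 or less. Members were left out of the search. Add2 and Tmod1 were not well above background on all 6 arrays and were not searched.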

How the data were processed

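The deposited scanner files come from Agilent Feature Extraction 10.5.1.1 (per the submitters' processing notes) and hold the mean, background and processed intensity of 62976 spots. Per the file headers, the authors' processed intensity was background-subtracted and detrended, with surrogate values for weak spots, and not normalized between arrays. The authors' deposited table of log2 values, used as an alternative, proved to be 75th-percentile scaled with every probe centred at its median over the arrays (Pearson r of at least 0.99996 per array). Its column medians were -0.025, 0.018 and -0.0083 at 900 cGy and 0.047, -0.0059 and -0.046 at 0 cGy.

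Here each processed intensity was divided by the array's 75th percentile over 59305 non-control spots before taking log2 (1144, 1114 and 1182 at 900 cGy, 1166, 1152 and 1403 at 0 cGy). Outlier spots (91 to 146 per array) were dropped, and repeat spots averaged. Of 55681 probes, 27235 were named through accession, 3581 through symbol and 565 through synonym in a RefSeq table of GRCm38.p6. The remaining 24300 kept their deposited name. Positions of probes are as deposited (mm9). The brightest probe on average stood for a gene, tested if either group had it well above background on all 3 arrays. Groups were compared with limma 3.58.1 in R 4.3.3 (two-sided, Benjamini-Hochberg adjustment over all genes, threshold 0.05), and the procedure was tested on simulated data. Paralog differences used exact permutation over arrays. The number of arrays limits the precision, and the spread behind each p-value is that of pools, not of single mice.

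The 9 genes and all lists were chosen with earlier results of these data known. The text names all 9 genes, every gene of the pairs, up to 10 genes with values per partner or relative list, and the 3 genes nearest in profile. Results of a few of these genes are not reported here. Marker genes and Dmtn named with values were chosen after they were seen. The arrays were treated as unpaired. Deviations of same-numbered arrays correlated at 0.07, 0.12 and -0.00, which does not settle whether replicate numbers paired them. Alternatives were other background corrections, scalings, filters, probe rules and gene names, the deposited table, blocks for replicate or slide row, array weights and leaving out each array.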

Additional observations from a re-analysis of the deposited data

How the results depend on the processing

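Of the 9 genes, Ank1, Epb42, Add2, Add3 and Tmod1 stayed lower and past the threshold in every alternative in which they were tested. Their log2 changes ranged from -6.29 to -4.57, -7.14 to -4.96, -10.03 to -6.15, -1.86 to -1.50 and -5.60 to -3.25, the smallest with normexp except for Add3. The dim end of the scale limits them, since Add2 at 900 cGy was below background and Epb42 and Tmod1 were near it. Ank1, Epb42 and Add3 were tested in 19 alternatives, and Add2 and Tmod1 in 18. Neither Add2 nor Tmod1 was well above background on all 6 arrays, so both were tested only through the 0 cGy arrays. The fewest of the 9 genes called lower in any alternative was 4. Scaled to spike-ins, 4902 genes were higher and 10688 lower, in place of 7537 and 8259, and 0 of the 9 genes were higher. Sptbn1 was then at 0.32 (limma adjusted p = 0.151), Sptan1 at -0.0434 (0.858) and Dmtn at -0.0694. Within the first slide row 4466 genes were higher and 3931 lower, with 0 of the 9 higher, Sptbn1 at 0.51 (0.139) and Add1 at -0.68 (0.0536), Dmtn at -0.0338 and 7 relatives higher and 0 lower. With slide row as a block 0 of the 9 were higher (Sptbn1 0.51, 0.0707), Dmtn was at -0.0338 and 1 relative was lower. With the mean of all probes 2 of the 9 were higher (Sptan1 0.57, 0.00337) and Dmtn was at -1.70, with array weights 2 (Sptan1 0.27, 0.00483), and with the names as in the files 0, with 5 relatives higher; fewer genes are found under those names. Of the partners 2 were higher with normexp and quantile normalization and with array weights, and 0 with spike-in scaling, median scaling, the mean of all probes, the row block or the first row. Where no cause is named, the cause was not tested. Leaving out each array in turn gave 1 to 2 of the 9 genes higher and 6 lower, and 0 to 2 partners higher. Log2 changes were then 0.21 to 0.49 for Sptb (limma adjusted p = 0.0377 without replicate 1 at 0 cGy), 0.19 to 0.29 for Sptan1 (0.0129 without replicate 3 at 0 cGy), and -0.46 to 0.0125 for the difference of Sptb and Sptbn1, which reversed without replicate 1 at 0 cGy. With replicate number as a block, 7146 genes were higher and 7562 lower, and the log2 change of Sptbn1 was 0.59 (0.00948); the block changed no call of the 9 genes, and replicates 1 and 2, but not 3, correlated best with their own number.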

Other observations

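An unnamed probe on the strand opposite to Ank1, at chr8:24258862-24258921 of mm9 and 206 bases from the Ank1 probe, had levels of -8.34, -8.17 and -8.37 at 900 cGy, where no array had it well above background, against -4.76, -5.41 and -6.79 at 0 cGy, where it was on 2 of 3. Replicate 3 was the lowest of the 0 cGy arrays, as it was for Ank1. It was not tested, because it was not well above background on all 3 arrays of a group.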
